A study of Egretta garzetta and Nycticorax nycticorax with 12 samples.

Results

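The comparison was between nestlings of a nocturnal and of a diurnal heron. The olfactory epithelium (OE), the nasal tissue that holds the olfactory neurons, of 3 nestling black-crowned night herons (*N. nycticorax*) was set against that of 3 nestling little egrets (*E. garzetta*), over the genes that both species share by name. A gene was shared when its symbol in the study's table of vision-related genes was paired with an identifier of each species found in the expression files, and each identifier was used once. Of 299 symbols 241 were shared, out of 13361 annotated genes of *N. nycticorax* and 16585 of *E. garzetta*, and 240 of the 241 were above 0 in at least 1 of the 6 nestlings and were tested. The symbols GUCA1C, PRPH2, ROM1 and SAG were left out because their identifier already stood under another symbol. The whole series holds 12 birds, and the 3 adult *N. nycticorax* and the 3 adult *E. garzetta* serve here only to repeat the comparison in other birds.

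The nestlings of both species had a body length under 15 cm, and each was taken from a different nest. Each bird gave 1 library. The p-values below rest on the spread between these birds, taken as common to both species and drawn toward that of genes at a similar level. The spread was unequal between the species, as given below, and the p-values do not allow for that. Ages and sexes of the nestlings were not used. The adults were caught at another location than the nestlings, so stage and location cannot be told apart.

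The genes belong to the development and function of the eye, and many of them also work in other epithelia. In the photoreceptors of the retina, light activates an opsin, the G protein transducin passes the signal to a phosphodiesterase, and the fall of cyclic GMP closes a channel in the membrane. Kinases and arrestins then shut the opsin off, and guanylate cyclase with its activating proteins restores cyclic GMP. The OE has no photoreceptors, but its sensory neurons and multiciliated cells share with them the machinery of the cilium, and the tissue below it holds collagen-producing fibroblasts. In bulk tissue, fewer cells of a type and less RNA per cell cannot be told apart.

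The values are TPM, transcripts per 1000000 over all annotated genes of a species. Because the annotations of the species differ, the TPM of the shared genes were rescaled to the same total of 31076 TPM in each bird, and "TPM" without further words stands for these values below. Differences are those of limma, as log2(TPM + 0.5) in *N. nycticorax* minus that in *E. garzetta*, with Benjamini-Hochberg adjusted p over the 240 genes and a threshold of 0.05. With 0.5 TPM added, the change of a gene at a low level comes out smaller than its ratio of TPM.

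The libraries held 10530972 to 13169583 read equivalents in *N. nycticorax* and 11352424 to 16326012 in *E. garzetta*, which are coverage times coding length over the read length of 150 bp. The library of *N. nycticorax* 2 stood apart by transcript length. Transcripts under 1000 bp held 81.7% of its TPM, against 66.3% and 71.9% in the other *N. nycticorax* nestlings and 67.3% to 69.8% in *E. garzetta*. Transcripts over 4000 bp held 0.276% of its TPM, against 1.37% and 0.966% in the other *N. nycticorax* nestlings and 2.49% to 2.60% in *E. garzetta*. The birds also differed in COL1A1, the main chain of fibrillar collagen, which alone made up 6.53%, 31.9% and 67.4% of the shared total in *N. nycticorax* 1, 2 and 3, against 75.6%, 60.4% and 63.0% in *E. garzetta* 1, 2 and 3. A common total therefore lifts the other genes of *N. nycticorax* 1, whose values were multiplied by 2.39 for equal totals and by 0.789 for median-of-ratios scaling, while the factors of *N. nycticorax* 2 were 2.81 and 2.68. The median log2 difference over the 240 genes was 0.46 with equal totals and -0.01 when the birds were scaled by the median of their gene ratios instead, so the main results are given on both scales. With equal totals 171 of 240 differences were positive, and with median-of-ratios scaling 119.

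Ranked by deposited TPM across the 240 genes, the *N. nycticorax* nestlings were less alike, with Spearman's rho of 0.861 to 0.899 between birds, than the *E. garzetta* nestlings, with 0.968 to 0.978. *N. nycticorax* 3 had rho of 0.905 to 0.908 with the 3 *E. garzetta* nestlings, while *N. nycticorax* 2 had 0.793 to 0.815. These correlations are across genes, which are not independent replicates. The median SD of a gene between birds was 0.98 on the log2 scale in *N. nycticorax* and 0.44 in *E. garzetta* with equal totals, and 0.68 and 0.26 with median-of-ratios scaling. The SD was larger in *N. nycticorax* for 212 of 240 genes on the equal-total scale and for 195 on the median-of-ratios scale. Without *N. nycticorax* 2 the median SD in *N. nycticorax* was 1.03 with equal totals and 0.40 with median-of-ratios scaling, and it was larger than in *E. garzetta* for 198 and 149 genes. That SD rests on fewer birds than the others given here, so these medians and counts are not directly comparable with them.

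The labelled tissue could be checked only in part. Of the olfactory markers looked for, OMP, CNGA2, ADCY3, GNAL, KRT5, TP63 and FOXJ1 were not among the shared symbols, and SOX2 and PAX6, transcription factors of basal and supporting cells of the OE and also of the eye, were. SOX2 had 530, 183 and 109 TPM in *N. nycticorax*, against 56.3, 139 and 117 TPM in *E. garzetta*. PAX6 had 12.6, 6.74 and 17.7 TPM in *N. nycticorax*, against 1.94, 6.49 and 7.73 TPM in *E. garzetta*. Both were present in all 6 birds, and neither differed past the threshold (limma, adjusted p = 0.375 and 0.467).

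Between the species 6 of 240 genes (2.5%) passed the threshold, of which 5 (2.08%) were higher and 1 (0.417%) was lower in *N. nycticorax*. SOX14, MYO3B, GUCA1A and GRK7 were among the higher genes, and the lower gene was PTPRM. At an unadjusted p under 0.05 there were 42 genes (17.5%). On the median-of-ratios scale 6 genes (2.5%) were called, of which SOX14, MYO3B and GRK7 were higher and PTPRM, ARR3 and RH1 were lower, and 50 (20.8%) had an unadjusted p under 0.05. Without *N. nycticorax* 2, 10 genes (4.17%) were called, 8 higher and 2 lower, and all 6 genes of the full comparison were among them. All *N. nycticorax* nestlings lay above all *E. garzetta* nestlings for 49 genes (20.4%) and below them for 8 genes (3.33%) with equal totals, and for 32 (13.3%) and 35 (14.6%) with median-of-ratios scaling. In these counts higher genes outnumbered lower ones with equal totals and not with median-of-ratios scaling.

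**Figure D1:**
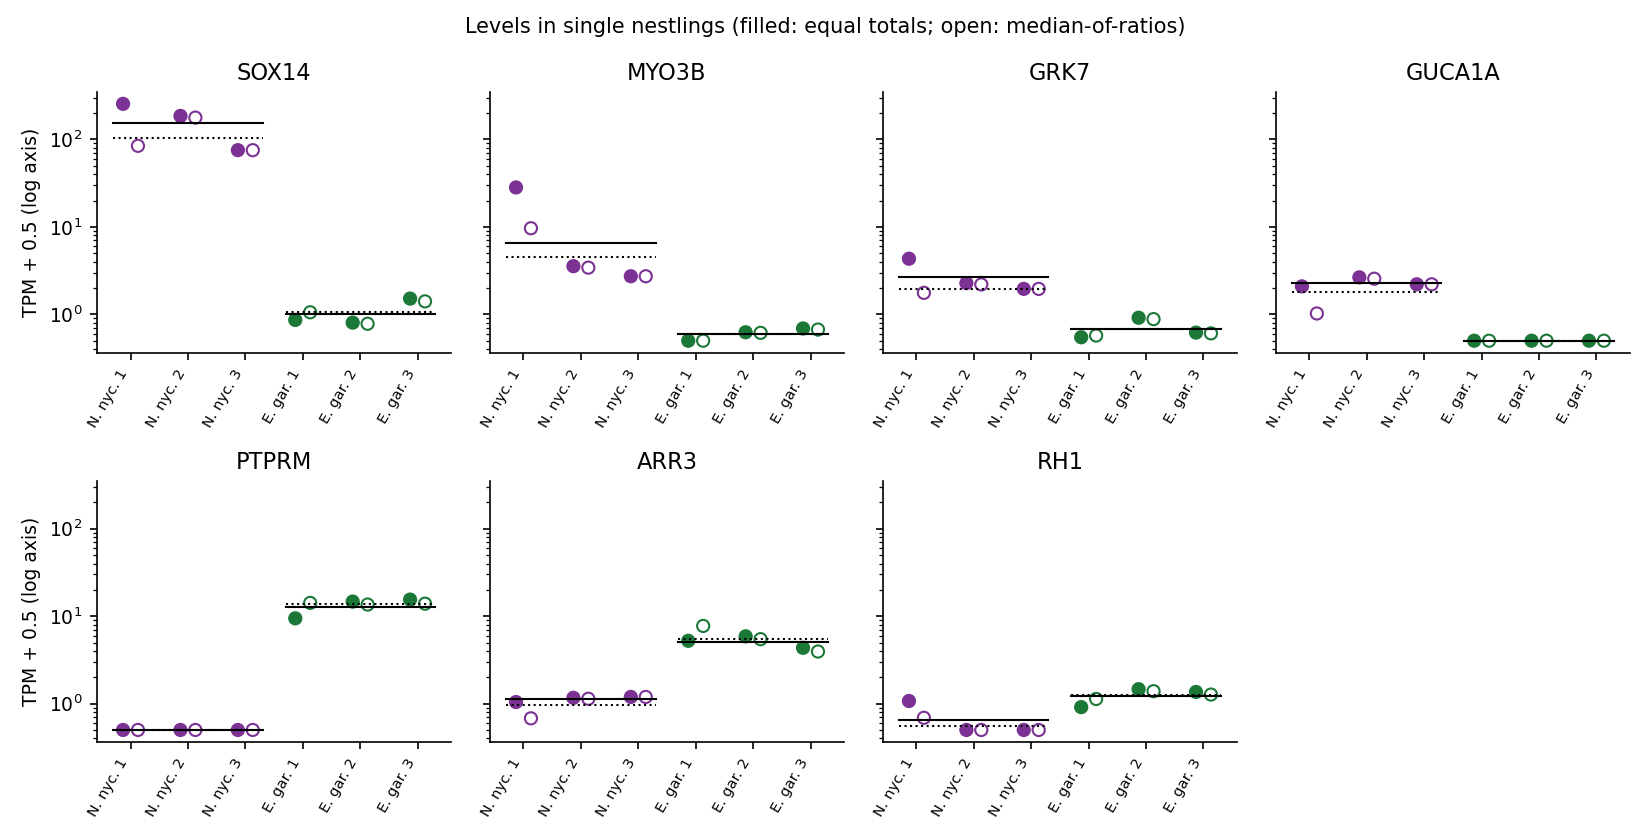
Level of SOX14, MYO3B, GRK7, GUCA1A and PTPRM, called with equal totals, and of ARR3 and RH1, called with median-of-ratios scaling, in each nestling, as TPM + 0.5 on a log axis. Filled points are equal totals, open points median-of-ratios scaling, and the lines are the means of the log values per species (solid and dotted); SOX14 lies between 75.0 and 255 TPM in *N. nycticorax* and at 1.02 TPM or below in *E. garzetta* with equal totals.

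The largest difference was that of SOX14, a transcription factor of the SoxB2 group that acts in the differentiation of neurons in the brain of other vertebrates. SOX14 had 255, 186 and 75.0 TPM in *N. nycticorax* 1, 2 and 3, against 0.364, 0.305 and 1.02 TPM in *E. garzetta* 1, 2 and 3. The lowest *N. nycticorax* nestling lay far above the highest *E. garzetta* nestling, and no bird stood between the groups. The difference was 7.23 ± 0.83 (SE) on the log2 scale (limma, adjusted p = 1.22e-05) and 6.63 with median-of-ratios scaling (adjusted p = 0.00029). Behind these values lay 863, 946 and 817 read equivalents in *N. nycticorax* and 5.67, 2.89 and 14.2 in *E. garzetta*. SOX14 was called in all 26 settings that were tried. Its gene models are single exons of 744 bp and 705 bp. In *N. nycticorax* no other shared gene lies on the scaffold of SOX14, while in *E. garzetta* EPHB1 and PPP2R3A do. These neighbours lie together on another scaffold of *N. nycticorax*, 144, so the pairing of SOX14 is uncertain. None of the other 30 transcription factors was called, beside 6 of 240 genes (2.5%) in all.

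In phototransduction 23 of 26 listed genes were measured. With equal totals 2 were called, both higher in *N. nycticorax*, beside 5 higher and 1 lower over all 240 genes. With median-of-ratios scaling 1 was called higher and 2 lower, beside 3 higher and 3 lower over all 240 genes. The median difference was 0.27, beside 0.46 over all 240 genes (0.14 and -0.01 with median-of-ratios scaling). GRK7, the cone opsin kinase that phosphorylates activated opsin, had 3.83, 1.78 and 1.46 TPM in *N. nycticorax*, against 0.0476, 0.416 and 0.119 TPM in *E. garzetta*. The groups did not overlap, and the difference was 1.99 ± 0.48 (SE; limma, adjusted p = 0.0212), or 1.54 with median-of-ratios scaling (adjusted p = 0.0327). The call was lost when any 1 *E. garzetta* nestling was left out (adjusted p = 0.15 to 0.39) and with deposited TPM (0.145). GRK7 is also the called gene whose models match best, since both are 1653 bp in 4 exons and lie on the same scaffold as OPA1 and DLG1. The counts behind it were small, with 28.8, 20.1 and 35.3 read equivalents in *N. nycticorax* and 1.74, 9.24 and 3.9 in *E. garzetta*.

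GUCA1A, an activator of the guanylate cyclase of photoreceptors, had 1.59, 2.15 and 1.71 TPM in *N. nycticorax* and was listed at 0 in all 3 *E. garzetta* nestlings. The *N. nycticorax* values rest on 3.82, 7.79 and 13.2 read equivalents. The fitted difference of 2.21 ± 0.38 (SE; limma, adjusted p = 0.00118) depends on the added 0.5 TPM and is no bound. The *E. garzetta* values, all 0, add no spread, so the SE and p do not measure a spread in both species. With median-of-ratios scaling the *N. nycticorax* values were less alike, at 0.525, 2.06 and 1.71 TPM. The difference missed the threshold on that scale, at 1.84 (limma, adjusted p = 0.0516). The identifier also stood under the symbol GUCA1C, and the neighbouring shared genes differed between the species, so the pairing is uncertain.

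ARR3, the cone arrestin that ends the activity of cone opsins, ran the other way. It had 0.543, 0.666 and 0.694 TPM in *N. nycticorax*, against 4.73, 5.38 and 3.85 TPM in *E. garzetta*, with no overlap. The difference of -2.17 ± 0.60 (SE) just missed the threshold with equal totals (limma, adjusted p = 0.0502) and passed it with median-of-ratios scaling, at -2.50 (adjusted p = 0.0327). The *N. nycticorax* identifier also stood under SAG, the rod arrestin, and to which arrestin its reads belong was not tested. The models had similar lengths, 1209 bp in *N. nycticorax* and 1230 bp in *E. garzetta*.

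RH1, the opsin of rods, was at the limit of detection. It had 0.572, 0 and 0 TPM in *N. nycticorax*, against 0.412, 0.962 and 0.860 TPM in *E. garzetta*, which are 2.74, 0 and 0 read equivalents against 8.53, 12.1 and 16. *N. nycticorax* 1 lay above *E. garzetta* 1 with equal totals and below it with median-of-ratios scaling. The difference was -0.92 (limma, adjusted p = 0.225) with equal totals and passed the threshold at -1.18 (adjusted p = 0.0417) with median-of-ratios scaling. IFT122 neighbours RH1 in both species.

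The other channel and G protein genes did not pass the threshold in the full comparison. CNGA3, a subunit of the cone channel, had 2.79, 1.82 and 2.099 TPM in *N. nycticorax*, against 3.47, 5.70 and 6.59 TPM in *E. garzetta*, without overlap (difference -1.05, limma adjusted p = 0.463). CNGB1, the rod channel subunit that also forms part of the channel of olfactory neurons in mammals, had 7.19, 5.51 and 7.77 TPM in *N. nycticorax*, against 0.441, 0.408 and 3.00 TPM in *E. garzetta*. Its difference was 2.33 (limma, adjusted p = 0.1), and it was named after its values were seen, because it passed at 2.47 (adjusted p = 0.0487) without *N. nycticorax* 2. The most abundant member was GNB1, a β subunit of G proteins used in most cells, with 772, 325 and 342 TPM in *N. nycticorax* and 158, 274 and 289 TPM in *E. garzetta*. The GNB1 models differ in length, with 249 bp in *N. nycticorax* and 1200 bp in *E. garzetta*.

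The markers of the retina were at low levels in every bird. The 9 measured markers summed to 28.9, 8.68 and 7.54 TPM in *N. nycticorax* and to 11.6, 16.8 and 16.9 TPM in *E. garzetta*. The marker with the highest mean was RGS9, which speeds the shut-off of transducin, with 23.9, 5.18 and 4.39 TPM in *N. nycticorax* and 2.75, 4.55 and 4.72 TPM in *E. garzetta*. Among the defining markers, GNAT1 of rods had 0.195, 0.378 and 0 TPM in *N. nycticorax* and was listed at 0 in all 3 *E. garzetta* nestlings. CNGA1 was above 0 in *N. nycticorax* 1 only, with 0.379 TPM, PDC was at 0 in all 6 birds, and PDE6B, PDE6C and GUCY2F stayed at or below 0.631 TPM. Apart from RGS9, ARR3 and CNGA3 no measured retina marker exceeded 0.962 TPM in any nestling.

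Of the genes for photoreceptor structure and the visual cycle 17 of 19 were measured. On each scale 1 was called, beside 6 of 240 genes (2.5%) in all. The median difference was 0.59, beside 0.46 over all genes (0.17 and -0.01 with median-of-ratios scaling). The called gene was MYO3B, a class III myosin of actin protrusions in photoreceptors and hair cells. MYO3B had 27.8, 3.06 and 2.23 TPM in *N. nycticorax*, against 0, 0.125 and 0.190 TPM in *E. garzetta*. *N. nycticorax* 1 was highest by far, and the other *N. nycticorax* nestlings also lay above all *E. garzetta* nestlings. The difference was 3.44 ± 0.73 (SE; limma, adjusted p = 0.00983) and 2.92 with median-of-ratios scaling (adjusted p = 0.0327). Leaving out any 1 *E. garzetta* nestling ended the call (adjusted p = 0.225 to 0.39), as did deposited TPM (0.112). The *N. nycticorax* model of 1557 bp in 13 exons is shorter than the *E. garzetta* model of 3273 bp in 27 exons. The scaffolds of the models share none of their other listed genes, so the pairing is uncertain.

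USH1C, a scaffold protein of the same protrusions, had 14.2, 1.89 and 5.36 TPM in *N. nycticorax*, against 0.108, 1.06 and 1.29 TPM in *E. garzetta*. Its difference of 2.31 missed the threshold in the full comparison (limma, adjusted p = 0.108) and passed it at 2.96 (adjusted p = 0.00969) without *N. nycticorax* 2. It was named for that reason after its values were seen. The highest mean in the list was that of NXNL2, a thioredoxin-like factor that promotes the survival of photoreceptors and olfactory neurons in mice, with 127, 63.7 and 12.8 TPM in *N. nycticorax* and 28.0, 14.5 and 38.0 TPM in *E. garzetta*. For NXNL2 the groups overlapped. Of the markers of the retinal pigment epithelium, RPE65, the isomerase of the visual cycle, had 0.724 to 2.23 TPM in *N. nycticorax* and 0.537 to 1.14 TPM in *E. garzetta*. RGR, an opsin and the other of these markers, had 0, 0.914 and 1.28 TPM in *N. nycticorax*, against 0, 0.0905 and 0 TPM in *E. garzetta* (difference 1.03, limma adjusted p = 0.175).

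All 11 lens genes were measured. With equal totals 1 was called and with median-of-ratios scaling 0 were, beside 6 of 240 genes (2.5%) in all on each scale. The median difference over the list was 0.52 (-0.05 with median-of-ratios scaling, and 0.22 without *N. nycticorax* 2, beside 0.81 over all genes). The crystallins of the lens differed in pattern. CRYAB, a small heat shock protein of the lens that many other tissues also make, was chosen after its values were seen and had 61.5, 26.0 and 21.8 TPM in *N. nycticorax*, against 0.920, 6.37 and 8.63 TPM in *E. garzetta*. Its groups did not overlap on either scale, but the difference of 2.89 was not called (limma, adjusted p = 0.0926, and 0.122 at 2.29 with median-of-ratios scaling). CRYAA, an α-crystallin chaperone of the lens, had 0, 24.5 and 0.225 TPM in *N. nycticorax* and 0.516, 0.510 and 0.731 TPM in *E. garzetta*. CRYBB1, a β-crystallin, had 0, 5.94 and 0 TPM in *N. nycticorax* and 0.677, 0.429 and 1.99 TPM in *E. garzetta*. Both were high in *N. nycticorax* 2 only, and CRYBA2, the most abundant lens marker, was also highest there, with 16.5, 21.2 and 0 TPM in *N. nycticorax*, against 1.03, 6.43 and 10.4 TPM in *E. garzetta*. The 7 lens markers summed to 25.3, 64.7 and 7.71 TPM in *N. nycticorax* and to 8.32, 11.7 and 17.9 TPM in *E. garzetta*. Without *N. nycticorax* 2, CRYBB1 was called lower in *N. nycticorax*, with a difference of -1.48 (limma, adjusted p = 0.038), while with that bird it was -0.25 (adjusted p = 0.895). Both remaining *N. nycticorax* nestlings were at 0, so they add no spread, and the size of -1.48 depends on the added 0.5 TPM. The *E. garzetta* values of CRYBB1 rest on 7.99, 3.08 and 21.1 read equivalents. TDRD7, an RNA granule protein of the lens with the highest mean of the list, had 80.2, 30.0 and 13.4 TPM in *N. nycticorax* and 9.44, 9.85 and 23.9 TPM in *E. garzetta*.

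Among 31 transcription factors, 25 had a positive difference with equal totals and 13 with median-of-ratios scaling, and the median was 0.36 and -0.08. Without *N. nycticorax* 2 it was 0.98, beside 0.81 over all genes. The most abundant was EPAS1, a hypoxia-inducible factor, with 713, 207 and 189 TPM in *N. nycticorax* and 112, 260 and 198 TPM in *E. garzetta*. On the median-of-ratios scale EPAS1 had 235, 198 and 189 TPM in *N. nycticorax* and 172, 240 and 178 TPM in *E. garzetta*, within the same range. PITX3, a homeobox factor of the lens and of dopamine neurons, had 0, 0 and 0.276 TPM in *N. nycticorax*, against 0.366, 0.575 and 0.641 TPM in *E. garzetta*. Its groups did not overlap, but the difference of -0.82 was not called (limma, adjusted p = 0.189).

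Of the 11 genes of epithelial junctions and transport 1 was called on each scale, beside 6 of 240 genes (2.5%) in all. It was PTPRM, a receptor tyrosine phosphatase that mediates adhesion between cells. PTPRM was listed at 0 in all 3 *N. nycticorax* nestlings and had 8.95, 14.2 and 15.0 TPM in *E. garzetta*, on 823, 794 and 1236 read equivalents. The fitted difference was -4.69 ± 0.62 (SE; limma, adjusted p = 5.08e-05) and -4.80 with median-of-ratios scaling (adjusted p = 0.000179). This difference depends on the added 0.5 TPM and is no bound. The *N. nycticorax* values, all 0, add no spread, so the SE and p do not measure a spread in both species. The *N. nycticorax* model holds 1062 bp in 3 exons and the *E. garzetta* model 4158 bp in 29 exons, and their scaffolds have other shared genes but none in common. LAMA1 lies with PTPRM on scaffold 160 of *E. garzetta* but on scaffold 125 of *N. nycticorax*, apart from PTPRM, so the pairing is uncertain. A lack of RNA, a gene model that does not catch the RNA of the *N. nycticorax* gene and a pairing of different genes cannot be told apart.

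The aquaporins, channels for water, were among the most abundant shared genes. AQP5, which works in glands and airway epithelia, had 1683, 1415 and 267 TPM in *N. nycticorax*, against 119, 170 and 146 TPM in *E. garzetta*. No bird of either species stood within the range of the other, and the difference of 2.58 ± 0.71 (SE) just missed the threshold (limma, adjusted p = 0.0502, and 0.152 at 1.91 with median-of-ratios scaling). AQP1, which works in blood vessels, had 3267, 964 and 809 TPM in *N. nycticorax* and 874, 1414 and 1251 TPM in *E. garzetta*, with overlap. GJA1, connexin 43 of fibroblasts and many epithelia, had 73.6, 104 and 375 TPM in *N. nycticorax*, against 480.5, 500.2 and 533 TPM in *E. garzetta*. Its difference of -1.82 was not called (limma, adjusted p = 0.171), and its models are equally long, 1143 bp.

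The connective tissue markers were lower in *N. nycticorax* for 5 of 5 genes, but none was called, beside 6 of 240 genes (2.5%) in all. The median difference was -1.44 with equal totals and -1.93 with median-of-ratios scaling, beside 0.46 and -0.01 over all 240 genes. COL1A1 had 2028, 9924 and 20937 TPM in *N. nycticorax*, against 23494, 18784 and 19581 TPM in *E. garzetta*. *N. nycticorax* 3 lay inside the *E. garzetta* range and *N. nycticorax* 1 was the lowest bird. The difference was -1.45 ± 0.99 (SE; limma, adjusted p = 0.445), and -2.12 with median-of-ratios scaling (adjusted p = 0.419). Both COL1A1 models cover only a fragment, 870 bp in *N. nycticorax* and 360 bp in *E. garzetta*.

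LUM, a proteoglycan that spaces collagen fibrils, had 226, 538 and 343 TPM in *N. nycticorax* and 282, 1255 and 762 TPM in *E. garzetta* (difference -0.90, limma adjusted p = 0.504). KERA, its relative in the cornea, had 1.98, 2.78 and 5.04 TPM in *N. nycticorax* and 3.29, 17.4 and 12.7 TPM in *E. garzetta* (-1.44, adjusted p = 0.392). Both genes have models of the same length in the species and share neighbours in both. The growth factor receptor PDGFRA of fibroblasts had 21.3, 2.85 and 24.7 TPM in *N. nycticorax*, against 38.8, 39.5 and 49.9 TPM in *E. garzetta*, without overlap (-1.81, limma adjusted p = 0.265). Its relative PDGFRB, of pericytes, had 30.6, 2.48 and 21.6 TPM in *N. nycticorax* and 36.1, 26.8 and 29.0 TPM in *E. garzetta* (-1.28, adjusted p = 0.445). For both receptors *N. nycticorax* 2 was by far the lowest bird, and without it the differences with equal totals were -0.87 and -0.24. With median-of-ratios scaling *N. nycticorax* 1 and 3 also lay below all *E. garzetta* nestlings for both. PDGFRA then had 7.03 and 24.7 TPM in these birds, against 59.4, 36.4 and 44.7 TPM in *E. garzetta*. PDGFRB had 10.1 and 21.6 TPM, against 55.3, 24.7 and 25.9 TPM.

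In the wider list of the extracellular matrix 6 of 9 genes had a negative difference with equal totals and 7 with median-of-ratios scaling. The medians were -0.90 and -1.56, beside 0.46 and -0.01 over all genes. None of the 9 was called, beside 6 of 240 genes (2.5%) in all. COL5A1, which starts collagen fibrils, had 25.8, 5.35 and 56.9 TPM in *N. nycticorax*, against 96.5, 102 and 101 TPM in *E. garzetta*. Its groups did not overlap and the difference was -2.28 (limma, adjusted p = 0.129), but the *N. nycticorax* model covers 543 bp and the *E. garzetta* model 5381 bp. The summed level of the 5 connective tissue markers was 2308, 10469.9 and 21331 TPM in *N. nycticorax* and 23855, 20122.5 and 20434 TPM in *E. garzetta*. Whether the amount of connective tissue in the dissected OE moved the other differences was not tested.

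**Figure D2:**
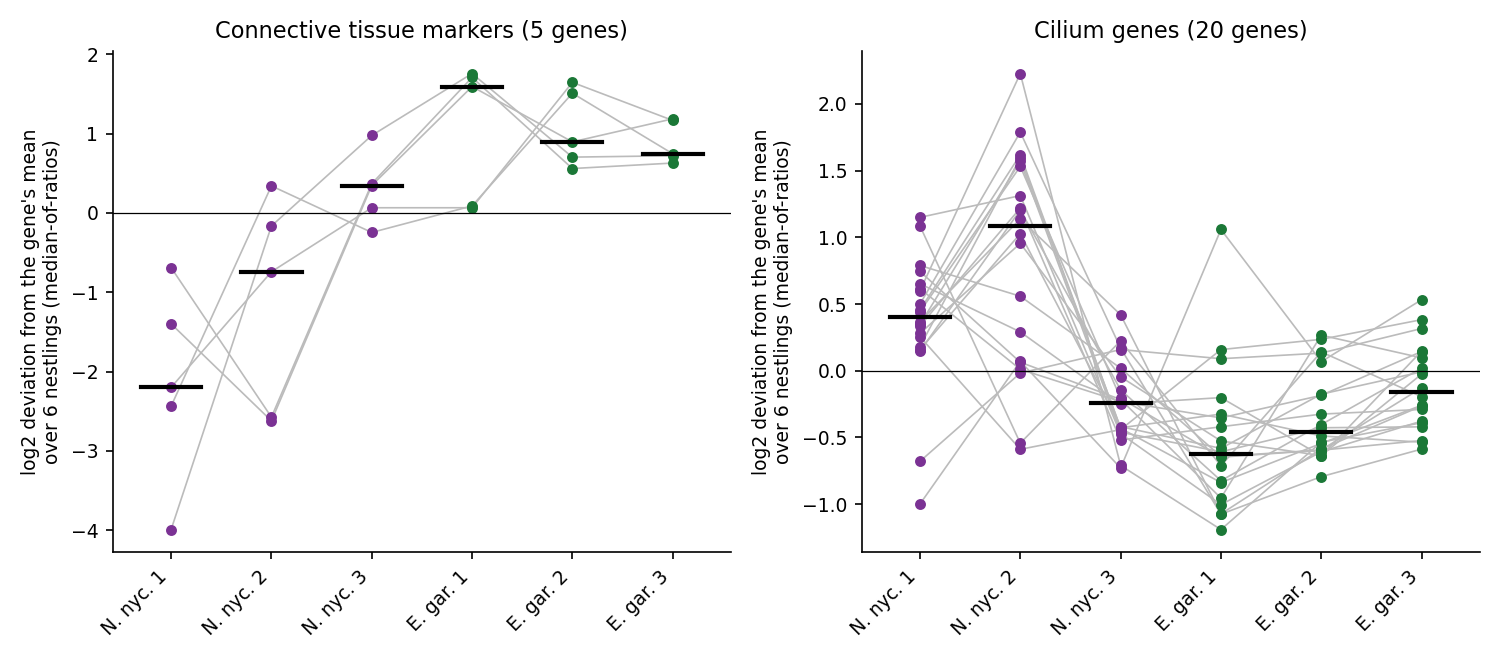
Deviation of each connective tissue marker (left) and each cilium gene (right) from its own mean over the 6 nestlings, on the log2 scale with median-of-ratios scaling; points are genes, grey lines join a gene across birds and black bars are medians. The medians of the connective tissue markers are -2.20, -0.74 and 0.35 in *N. nycticorax* and 1.59, 0.90 and 0.75 in *E. garzetta*, and those of the cilium genes 0.41, 1.08 and -0.24 in *N. nycticorax* and -0.63, -0.46 and -0.16 in *E. garzetta*.

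On the group means the cilium genes were mostly higher in *N. nycticorax*. All 20 were measured, and 19 had a positive difference with equal totals and 17 with median-of-ratios scaling. The median was 1.45 and 0.80, beside 0.46 and -0.01 over all genes. All *N. nycticorax* nestlings lay above all *E. garzetta* nestlings for 3 of 20, against 49 of 240 for all genes (4 and 32 with median-of-ratios scaling). In *N. nycticorax* 3, 15 of 20 lay below their mean over the 6 nestlings with median-of-ratios scaling. None of the cilium genes was called, beside 6 of 240 genes (2.5%) in all. Of the 20, 8 had an unadjusted p under 0.05 with a positive difference, against 35 of 240 for all genes. With median-of-ratios scaling 5 of 20 did, against 24 of 240, and without *N. nycticorax* 2 only 2 of 20 did, against 26 of 240. The median difference of the list without that bird was 1.33, beside 0.81 over all genes. Only 10 of the 20 pairs had coding lengths within 10% of each other, against 160 of 240 for all genes. Whether unlike gene models moved the list was not tested. RPGRIP1L, a protein of the transition zone at the base of the cilium, had 62.1, 53.0 and 16.2 TPM in *N. nycticorax*, against 4.27, 8.73 and 10.5 TPM in *E. garzetta*. It did not overlap between the species (difference 2.29 ± 0.81 SE, limma adjusted p = 0.151), but its *N. nycticorax* model is 498 bp long and its *E. garzetta* model 3813 bp.

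TMEM231, a membrane protein of the same zone and the most abundant cilium gene, had 275, 253 and 59.2 TPM in *N. nycticorax* and 41.6, 61.5 and 61.3 TPM in *E. garzetta* (difference 1.56, limma adjusted p = 0.254). IFT88, which carries cargo along the cilium and was chosen after its values were seen, had 231, 247 and 30.4 TPM in *N. nycticorax* and 14.1, 37.3 and 42.5 TPM in *E. garzetta* (2.07, adjusted p = 0.175). For both genes *N. nycticorax* 1 and 2 were high and *N. nycticorax* 3 lay inside the *E. garzetta* range. NPHP4 was the only cilium gene with a negative difference, of -0.45, and was also named after its values were seen. The cilium list was high in the birds in which the connective tissue markers were low, and in *N. nycticorax* 3 its median lay between those of the *E. garzetta* nestlings.

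Genes of lysosomes and mitochondria and genes of chromatin also lay above the median of all genes. In the first list 7 of 9 differences were positive with a median of 1.13 (6 and 0.46 with median-of-ratios scaling), and in the second 8 of 9 with a median of 0.93 (6 and 0.27). Without *N. nycticorax* 2 the medians were 0.92 and 1.23, beside 0.81 over all genes. The first list then lay only slightly above all genes. CTNS, the cystine exporter of lysosomes, had 109, 170 and 56.4 TPM in *N. nycticorax*, against 13.8, 40.5 and 27.4 TPM in *E. garzetta* (difference 2.00, limma adjusted p = 0.136). HDAC2, a histone deacetylase, had 524, 302 and 161 TPM in *N. nycticorax*, against 65.6, 158 and 132 TPM in *E. garzetta* (1.40, adjusted p = 0.267). Neither was called on either scale, although the *N. nycticorax* nestlings lay above all *E. garzetta* nestlings for both with equal totals. DNAJC19, a chaperone of mitochondrial import, had 139 to 399 TPM in *N. nycticorax* and 88.9 to 173 TPM in *E. garzetta*.

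Genes used in most cells also depended on the scale. CTNNB1, the β-catenin of cell junctions and Wnt signalling, had 1254, 514 and 469 TPM in *N. nycticorax* and 275, 473 and 489 TPM in *E. garzetta* with equal totals. With median-of-ratios scaling it had 414, 492 and 469 TPM in *N. nycticorax* and 421, 436 and 438 TPM in *E. garzetta*. RPL24, a ribosomal protein, had 3341, 6657 and 1179 TPM in *N. nycticorax* and 737, 1174 and 1201 TPM in *E. garzetta* (difference 1.55, limma adjusted p = 0.293). RPL24 is short, 468 bp in *N. nycticorax*, and *N. nycticorax* 2 remained the highest bird with median-of-ratios scaling. NOB1, which processes ribosomal RNA, had 189.9, 286 and 80.0 TPM in *N. nycticorax*, against 31.7, 31.6 and 28.9 TPM in *E. garzetta*. Its groups did not overlap, and the difference of 2.39 missed the threshold closely (limma, adjusted p = 0.0502, and 0.174 with median-of-ratios scaling). VIM, the intermediate filament of mesenchymal and supporting cells, had 829 to 1351 TPM in *N. nycticorax* and 896 to 1007 TPM in *E. garzetta*.

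The signalling lists held no called gene, beside 6 of 240 genes (2.5%) in all. The median difference of the 12 Wnt genes was 0.00, that of 14 genes of TGF-β and BMP signalling 0.06, that of 14 growth factor and guidance receptors 0.20 and that of 5 retinoic acid genes 0.36, all below the 0.46 of all genes, and with median-of-ratios scaling the medians were -0.65, -0.53, -0.44 and -0.30. Without *N. nycticorax* 2 they were 0.53, 0.57, 0.55 and 1.00, beside 0.81 over all genes, so that the retinoic acid genes lay above the median of all genes. WNT7A, a Wnt ligand, had 14.8, 5.77 and 2.29 TPM in *N. nycticorax* and 0.944, 2.45 and 0.432 TPM in *E. garzetta* (2.02, limma adjusted p = 0.175). BMPR1B, a BMP receptor, had 7.02, 4.52 and 3.83 TPM in *N. nycticorax*, against 1.11, 1.68 and 1.92 TPM in *E. garzetta*, without overlap (1.42, adjusted p = 0.295). TGIF1, a repressor in TGF-β signalling, had 482, 519.7 and 111 TPM in *N. nycticorax* and 92.3, 192 and 129 TPM in *E. garzetta* (1.20, adjusted p = 0.366).

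Among the receptors FGFR3 had the highest mean, with 295, 14.8 and 59.4 TPM in *N. nycticorax* and 105, 166 and 119 TPM in *E. garzetta*, so that the *N. nycticorax* birds held both the highest and the lowest level. ALDH1A3, an enzyme that makes retinoic acid, had 496, 41.8 and 74.8 TPM in *N. nycticorax* and 65.2, 111 and 101 TPM in *E. garzetta*. NR1B2, listed under the name of a retinoic acid receptor, had 116, 48.5 and 21.6 TPM in *N. nycticorax* and 8.73, 27.5 and 18.9 TPM in *E. garzetta* (1.55, limma adjusted p = 0.317). All 3 were highest in *N. nycticorax* 1 with equal totals.

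Of 21 genes of neurons and synapses none was called, beside 6 of 240 genes (2.5%) in all on each scale. Their median difference was 0.28, beside 0.46 over all genes (-0.05 and -0.01 with median-of-ratios scaling). CACNA1S, a subunit of a voltage-gated calcium channel of muscle, had 1.41, 0.714 and 0.725 TPM in *N. nycticorax*, against 0.0689, 0.0688 and 0.181 TPM in *E. garzetta*. It did not overlap between the species, and the difference was 1.23 ± 0.36 (SE; limma, adjusted p = 0.0666). It passed without *N. nycticorax* 2, at 1.34 (adjusted p = 0.038). THY1, a surface protein of neurons and fibroblasts, had 126, 155 and 111 TPM in *N. nycticorax*, against 49.0, 59.4 and 53.2 TPM in *E. garzetta*, without overlap (1.26, adjusted p = 0.285). With median-of-ratios scaling *N. nycticorax* 1 fell below the *E. garzetta* nestlings for THY1.

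**Figure D3:**
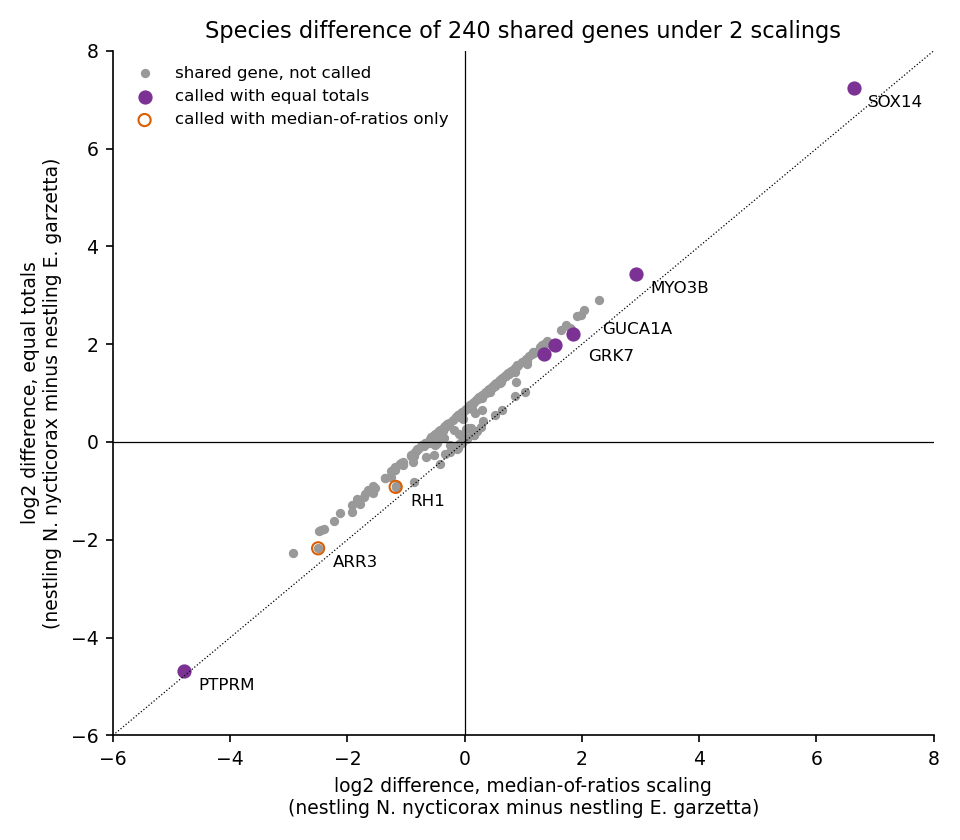
Log2 difference of the 240 tested genes, *N. nycticorax* minus *E. garzetta* nestlings, with equal totals (vertical) against median-of-ratios scaling (horizontal); filled points were called with equal totals, open circles with median-of-ratios scaling only, and the dotted line marks equal values (1 called gene is not labelled). Most genes lie above the line because equal totals move the median from -0.01 to 0.46, and SOX14 (7.23 and 6.63) and PTPRM (-4.69 and -4.80) stand apart on both scales.

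Leaving out *N. nycticorax* 2 raised the median difference of the 240 genes to 0.81, since *N. nycticorax* 1 then weighs more. The 4 further called genes were CNGB1, USH1C, CACNA1S and CRYBB1, and all 4 were named above. With median-of-ratios scaling and without that bird 2 genes were called, SOX14 and PTPRM. The length dependence of the libraries is shown by the median deviation of genes from their mean over the 6 birds. In *N. nycticorax* 2 this deviation was 0.56 for 67 genes under 1000 bp and -0.54 for 20 genes of 4000 bp or more with median-of-ratios scaling. In *N. nycticorax* 1 it was -0.11 and 0.34, and in *N. nycticorax* 3 -0.11 and 0.09. In *E. garzetta* it was -0.17 to -0.11 for the shortest and 0.05 to 0.10 for the longest genes.

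**Figure D4:**
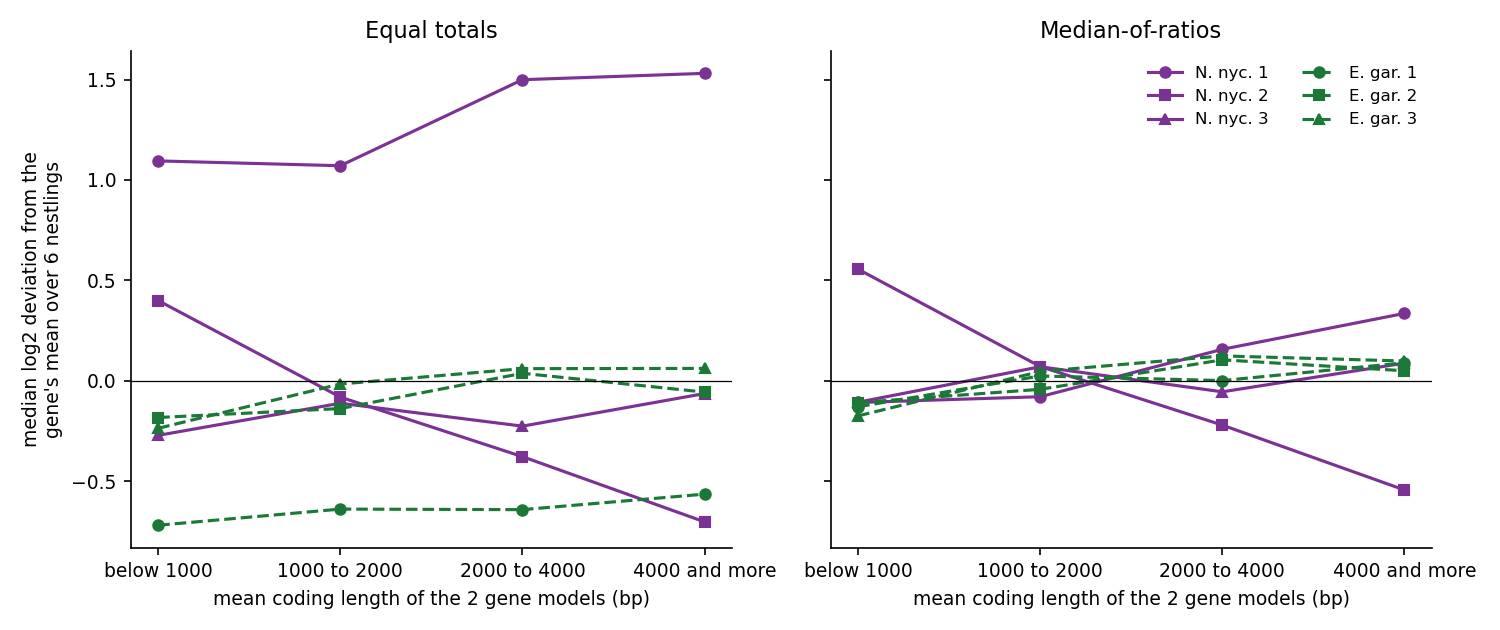
Median log2 deviation of shared genes from their mean over the 6 nestlings in 4 classes of coding length, with equal totals (left) and with median-of-ratios scaling (right), for *N. nycticorax* (solid) and *E. garzetta* (dashed). *N. nycticorax* 2 falls with length from 0.40 to -0.70 with equal totals, while *N. nycticorax* 1 lies between 1.07 and 1.53 in every class.

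The gene models limit each comparison of single genes. Of the 241 pairs 160 had coding lengths within 10% of each other, 13 *N. nycticorax* models were over 1.5 times as long as those of *E. garzetta*, and 25 were shorter by more than that factor. For 69 genes both scaffolds carried other shared genes, and in 60 of them at least 1 was in common. Of the other 9, 3 were among the 6 called genes, namely MYO3B, GUCA1A and PTPRM. Among the 160 genes of like length 4 were called, SOX14, GUCA1A and GRK7 among them. Each species was mapped to its own genome and annotation, so a difference between species and a difference between assemblies or gene models cannot be told apart.

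On the authors' scaffolds, counted from 1, SOX14 lies on scaffold 34 of *N. nycticorax* at 4129100 to 4129843 and on scaffold 448 of *E. garzetta* at 1395298 to 1396002. GRK7 lies on scaffold 40 at 3450832 to 3469937 in *N. nycticorax* and on scaffold 425 at 1343363 to 1362440 in *E. garzetta*. MYO3B lies on scaffold 42 at 124161 to 138316 in *N. nycticorax* and on scaffold 16 at 3390842 to 3504398 in *E. garzetta*. The short span of the *N. nycticorax* model goes with its smaller number of exons. GUCA1A lies on scaffold 121 at 129973 to 162573 in *N. nycticorax* and on scaffold 245 at 1462927 to 1466845 in *E. garzetta*. PTPRM lies on scaffold 175 at 840446 to 850242 in *N. nycticorax* and on scaffold 160 at 76238 to 407170 in *E. garzetta*, a far longer span.

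The same comparison in the adults used other birds of both species, with the same gene models. There 5 of 240 genes (2.08%) were called, and 4 of them were among the 6 genes called in nestlings. The adults were compared with equal totals only, and the adult differences hold for that scale. The factors were 1.87, 1.19 and 1.84 in adult *N. nycticorax* and 0.656, 0.380 and 1.36 in adult *E. garzetta*. SOX14 had 205, 111 and 124 TPM in adult *N. nycticorax*, against 1.40, 0.0800 and 1.75 TPM in adult *E. garzetta* (difference 6.71, limma adjusted p = 0.00295). MYO3B had 9.77, 8.65 and 12.0 TPM in adult *N. nycticorax*, against 0, 0 and 0.281 TPM in adult *E. garzetta* (4.18, adjusted p = 0.00295). GRK7 had 6.02, 4.90 and 7.43 TPM in adult *N. nycticorax*, against 0.225, 0.128 and 0.357 TPM in adult *E. garzetta* (3.16, adjusted p = 0.00295). These 3 genes were higher in every *N. nycticorax* bird of either stage than in any *E. garzetta* bird of the same stage.

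PTPRM had 0.227, 0 and 0 TPM in adult *N. nycticorax*, against 13.3, 9.61 and 24.4 TPM in adult *E. garzetta* (-4.74, limma adjusted p = 0.00295). ARR3 had 0.488, 0.554 and 1.13 TPM in adult *N. nycticorax*, against 6.14, 3.44 and 12.4 TPM in adult *E. garzetta*, without overlap and not called (-2.54, adjusted p = 0.0808). GUCA1A overlapped between the adults and was not called (1.00, adjusted p = 0.262). For all 6 genes the sign was that of the nestlings, while over the 240 genes the signs were equal for 178, with a median adult difference of 1.24. Over all 240 genes 207 had a positive difference in adults with equal totals. All 20 cilium genes did, with a median of 1.85, and 2 of 5 connective tissue markers did, with a median of -0.30.

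**Figure D5:**
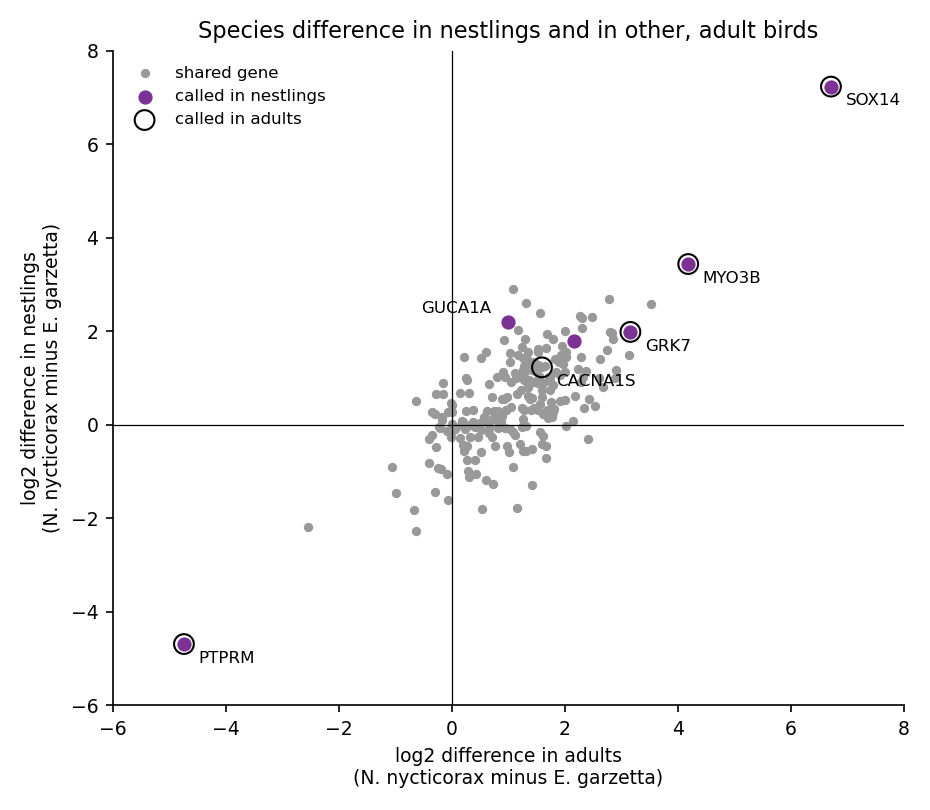
Log2 difference between the species in nestlings (vertical) and in the other, adult birds (horizontal) for 240 shared genes with equal totals; filled points were called in nestlings (1 is not labelled) and circles in adults. SOX14, MYO3B, GRK7 and PTPRM were called in both, GUCA1A in nestlings only and CACNA1S in adults only, and the difference between the stages was not called for any of them.

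Whether the species difference itself differed between the stages was tested with an interaction term over the 12 birds. No gene passed the threshold (0 of 240, 0%, limma, smallest adjusted p = 0.887), and 6 genes had an unadjusted p under 0.05. With median-of-ratios scaling 0 genes passed it and 15 had an unadjusted p under 0.05. These counts do not show that the differences were the same in nestlings and adults.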

How the data were processed

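RNA of the olfactory epithelium of 12 birds was sequenced as paired reads of 150 bp. Trimming by the authors used Trimmomatic, mapping used HISAT2 (version not given in the sources used here) with the own genome of either species, and StringTie 2.1.4 quantified the annotated transcripts. The TPM values that the authors deposited sum to 1000000 in each bird, and their FPKM values were not used. The deposited transcript coordinates and coverage gave coding lengths, scaffolds and read equivalents. A value of 3 read equivalents corresponds to 0.078 to 0.138 TPM, before rescaling, for a transcript of 2000 bp in a nestling and covers counting error only.

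Shared genes were rescaled to the mean total of the 6 nestlings and tested with limma 3.58.1 in R 4.3.3 (functions lmFit and eBayes, trended prior), on values of log2(TPM + 0.5) and over genes above 0 in at least 1 nestling. Of 30 genes changed by 2 and 30 by 4 on the log2 scale in simulated data of 240 genes, 6 and 27 were called, and 1 of 180 unchanged genes was. The simulation used the same SD in both species and independent noise. It changed only genes with a mean log2(TPM + 0.5) above 2 outside the 10 most abundant. Its rates therefore do not cover unequal spread between the species, shifts common to many genes or genes at a low level. Gene lists were described by counts and medians, with no test. The members, the lists and the rule for named genes were chosen with earlier results of these data known. Named genes are those called without overlap, filled up to 6 per direction by the smallest p, the 8 most abundant genes, the most abundant and the smallest-p gene of each of 18 lists, and cell type markers. CRYAB, NPHP4, IFT88, CNGB1 and USH1C were added after their values were seen. Alternatives were other pseudocounts (0.1 and 2 TPM), a minimum mean of 1 TPM, other scalings, length limits and corrections, a replicate block, no trend and leaving out each nestling. Tables used pandas 2.3.3 and scipy 1.17.1 in Python 3.11.15, and figures matplotlib 3.10.9. Sequences were not used here. 1 of the called genes is not reported here by name.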

Additional observations from a re-analysis of the deposited data

How the results depend on the processing

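SOX14 and PTPRM were called wherever they were tested, except that PTPRM leaves the comparison where models of unlike length or with unlike neighbours are left out. The count of 6 called genes became 3 with a minimum mean of 1 TPM, 2 without the trend in eBayes, and 3 to 26 when 1 nestling was left out. It was 12, 10 and 26 without *N. nycticorax* 1, 2 and 3, and 3 without *E. garzetta* 1, 2 or 3, where GRK7 and MYO3B were among the genes lost. Both were also lost with deposited TPM, without the trend, with equal totals without COL1A1 and with median-of-ratios scaling without *N. nycticorax* 2. GRK7 was also lost with a pseudocount of 0.1 TPM, a minimum mean of 1 TPM and the length correction, with or without a replicate block. MYO3B was also lost with a pseudocount of 2 TPM. GUCA1A was lost with median-of-ratios scaling, with or without *N. nycticorax* 2, with the length correction, with or without a replicate block, and without the trend. Without *N. nycticorax* 3, 20 of the 26 were not called with all birds. Of alternatives chosen after seeing the data, leaving out genes whose scaffolds hold other shared genes but none in common gave 3, and median-of-ratios scaling gave 14 with all 12 birds and 2 without *N. nycticorax* 2, against 10 with equal totals without that bird. The cause of these changes was not tested, and some of these settings also hold fewer genes or birds. The same replicate number did not pair the birds (correlation of deviations -0.27, -0.01 and -0.14 for numbers 1, 2 and 3). A replicate block left the count at 6, and a replicate block with a correction for length gave 21.

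The difference of TGIF1 turned to -0.15 with deposited TPM and to -0.10 with median-of-ratios scaling without *N. nycticorax* 2, and that of THY1 to -0.078 with deposited TPM. CRYBB1 turned to 0.10 with a pseudocount of 2 TPM, and lay between -1.48 and 0.36 when 1 nestling was left out (0.36 without *N. nycticorax* 1 or 3, 0.16 without *E. garzetta* 3). Over the 36 genes with a difference in the text, 772 values under an alternative kept their direction and side of the threshold, 24 lost and 53 gained the call and 7 changed direction. Most of the 772 belong to genes that were called neither in the full comparison nor under the alternative. Only genes called in the full comparison could lose a call, and the 24 losses were all of GRK7, MYO3B and GUCA1A. The interaction with stage gave 0 called genes under each of 7 alternatives. Gene-level precision is limited by few reads, as for GUCA1A, GRK7, RH1 and the retina markers.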
